A study of Homo sapiens with 2 samples.

Results

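Accessible chromatin was examined at 78 protein-coding genes of the homeobox families outside the HOX clusters. The cells were H1, an established line of human embryonic stem cells that is pluripotent. The genes were chosen by symbol alone, from the families NKX, DLX, IRX, LHX, MSX, EMX, PITX, BARHL, BARX, ALX, ISL, POU, MEIS and PBX and from SIX2 and its relatives, with POU5F1, SIX3, SIX6 and LHX2 left out by name. They made up 78 of the 20033 protein-coding genes of GENCODE release 44. The symbol rule also took in POU2AF1, POU2AF2 and POU2AF3, which encode coactivators that bind POU proteins and have no homeodomain, so 75 of the 78 genes encode a homeodomain protein. Openness was measured by ATAC-seq, in which the transposase Tn5 cuts and tags DNA that is not covered by nucleosomes. The cells had been stored frozen and were thawed, treated with DNase I, purified on Ficoll and processed by the Omni-ATAC protocol. Samples 1 and 2 form 1 group and share 1 deposited list of accessible regions, without treatment, genetic change or second condition. The labels do not say that these samples came from separate cultures, and the list gives no value per sample, so no value below has a replicate spread.

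Homeobox genes encode transcription factors that bind DNA through a homeodomain and set position and cell identity in the embryo. Their classes differ in partner domains: LIM proteins carry LIM domains that recruit the LDB adaptor, POU proteins carry a POU-specific domain and bind the octamer, SIX2 and its relatives work with EYA phosphatases, and the TALE proteins PBX and MEIS bind DNA together with HOX proteins. Most of these genes are silent in pluripotent cells and are switched on in particular lineages, and in embryonic stem cells many lie in broad CpG-rich domains that Polycomb proteins occupy. Accessibility at a start is not transcription, and RNA was not measured in these samples.

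The list held 236878 summits in 160327 distinct regions, of which 902 (0.563%) lay at or near the 78 genes. A summit is the point of highest signal, and its fold is the enrichment over background that the authors deposited. At least 1 summit within 1 kb of a transcript start of these genes was held by 147 regions. Another 768 were other regions, meaning those within 50 kb of a gene and at none of its own starts, and 13 regions were in both sets because they lay at the start of a neighbouring homeobox gene. Of the 768 other regions, 136 lay at a start of some gene and 632 at no annotated start of any gene. All 8 pluripotency markers had a region at a start (median fold 7.91), against 81.1% of all protein-coding genes (median 9.71). Of other markers, 0 of 3 for blood, 1 of 2 for fibroblasts and 1 of 3 for liver had one. These were DCN with 8.58 and ALB with 5.11, the latter away from its canonical start. The ratio of observed to expected CpG at starts had a median of 0.698 for the pluripotency markers. It was 0.232, 0.264 and 0.21 for the blood, fibroblast and liver markers. The lists were thus not matched for CpG content, and these counts do not test cell identity.

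The sequences shown are examples picked at extremes of fold, not typical regions. They are strong other regions with the octamer, the site that POU proteins bind, strong CpG-rich regions away from starts, and the start with the lowest fold. All are from the GRCh38 genome, plus strand, 5′ to 3′. In the first 3, which reach 50 bases to either side of the summit, capitals mark the octamer ATGCAAAT or its reverse complement. They are among the other regions of highest fold that held a homeodomain-family motif. They lie inside POU2F1 at chr1:167301507-167301607 (fold 11.6), inside POU2F3 at chr11:120255423-120255523 (11.0) and upstream of IRX6 at chr16:55292659-55292759 (9.99).
POU2F1: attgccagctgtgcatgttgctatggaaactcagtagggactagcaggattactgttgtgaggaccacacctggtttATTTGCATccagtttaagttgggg
POU2F3: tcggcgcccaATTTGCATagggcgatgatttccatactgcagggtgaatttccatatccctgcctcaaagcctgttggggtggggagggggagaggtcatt
IRX6: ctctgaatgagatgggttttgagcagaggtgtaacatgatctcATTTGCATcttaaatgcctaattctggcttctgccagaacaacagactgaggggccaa

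In the next sequences, of the same length, capitals mark the CpG dinucleotides. They come from CpG-rich other regions of high fold near POU4F1 at chr13:78586827-78586927 (fold 16.9, intergenic) and near IRX6 at chr16:55371191-55371291 (12.0, intergenic), and were chosen after their values were seen. They hold 4 and 8 CpG dinucleotides.
POU4F1: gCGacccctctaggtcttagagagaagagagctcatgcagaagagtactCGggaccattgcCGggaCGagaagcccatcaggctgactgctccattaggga
IRX6: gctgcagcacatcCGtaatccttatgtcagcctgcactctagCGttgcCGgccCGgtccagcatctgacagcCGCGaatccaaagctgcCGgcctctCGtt

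The last sequence is the 150 bases before the canonical start of LHX8, the gene with the lowest fold, at chr1:75134238-75134387 (2.22), again with CpG in capitals. The accessible region of LHX8, at chr1:75134873-75135204, has its summit 726 bp downstream of the start and does not cover the bases shown.
LHX8: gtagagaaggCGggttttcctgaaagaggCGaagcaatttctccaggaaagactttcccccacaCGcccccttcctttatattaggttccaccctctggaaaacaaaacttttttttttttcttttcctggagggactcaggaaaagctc

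Nearly all of these genes had accessible chromatin at a start, at a lower fold than protein-coding genes as a whole. A region lay at a start of 73 of the 78 genes (93.6%, 95% exact binomial interval 85.7% to 97.9%), against 81.1% of all protein-coding genes. At the start of the Ensembl canonical transcript the share was 71 of 78 (91.0%), against 76.8%. Neither comparison is matched for the CpG content of the starts, which is given by decile below. The median fold of the strongest start summit was 6.12 over the 73 genes (interval of the median 5.40 to 7.15), against 9.71 over all 16254 genes with a region. The lowest fold was 2.22, and the 10th to 90th percentile was 3.76 to 9.74, against 4.77 to 15.4. A fold of 10 or more was reached by 5 genes (6.41%), against 38.5% of all genes. The fold was below the median of all genes with a region in 65 of the 73, where 50.0% of all such genes lie below it.

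The regions at these starts were also narrower and, by the median distance, less centred. Their median width was 808 bp, against 1074 bp over all genes. The strongest summit lay a median of 130 bp from the nearest start, against 74 bp. It lay more than 200 bp away in 20 of 73 genes (27.4%), against 22.5% of all genes with a region. Both values use the nearest of all annotated starts and are not matched for the number of starts, given below. By homeodomain class the share more than 200 bp away lay on both sides of 22.5%, from 15.4% (POU) and 16.7% (PRD) to 38.5% (TALE). At least 2 distinct regions lay at the starts of 37 of the 78 genes (47.4%), against 31.3% of all genes, although these genes have a median of 3 annotated starts, against 5. An lncRNA on the opposite strand starts within 1 kb of a start of 27 of them (34.6%), against 18.7% of all genes.

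**Figure D1:**
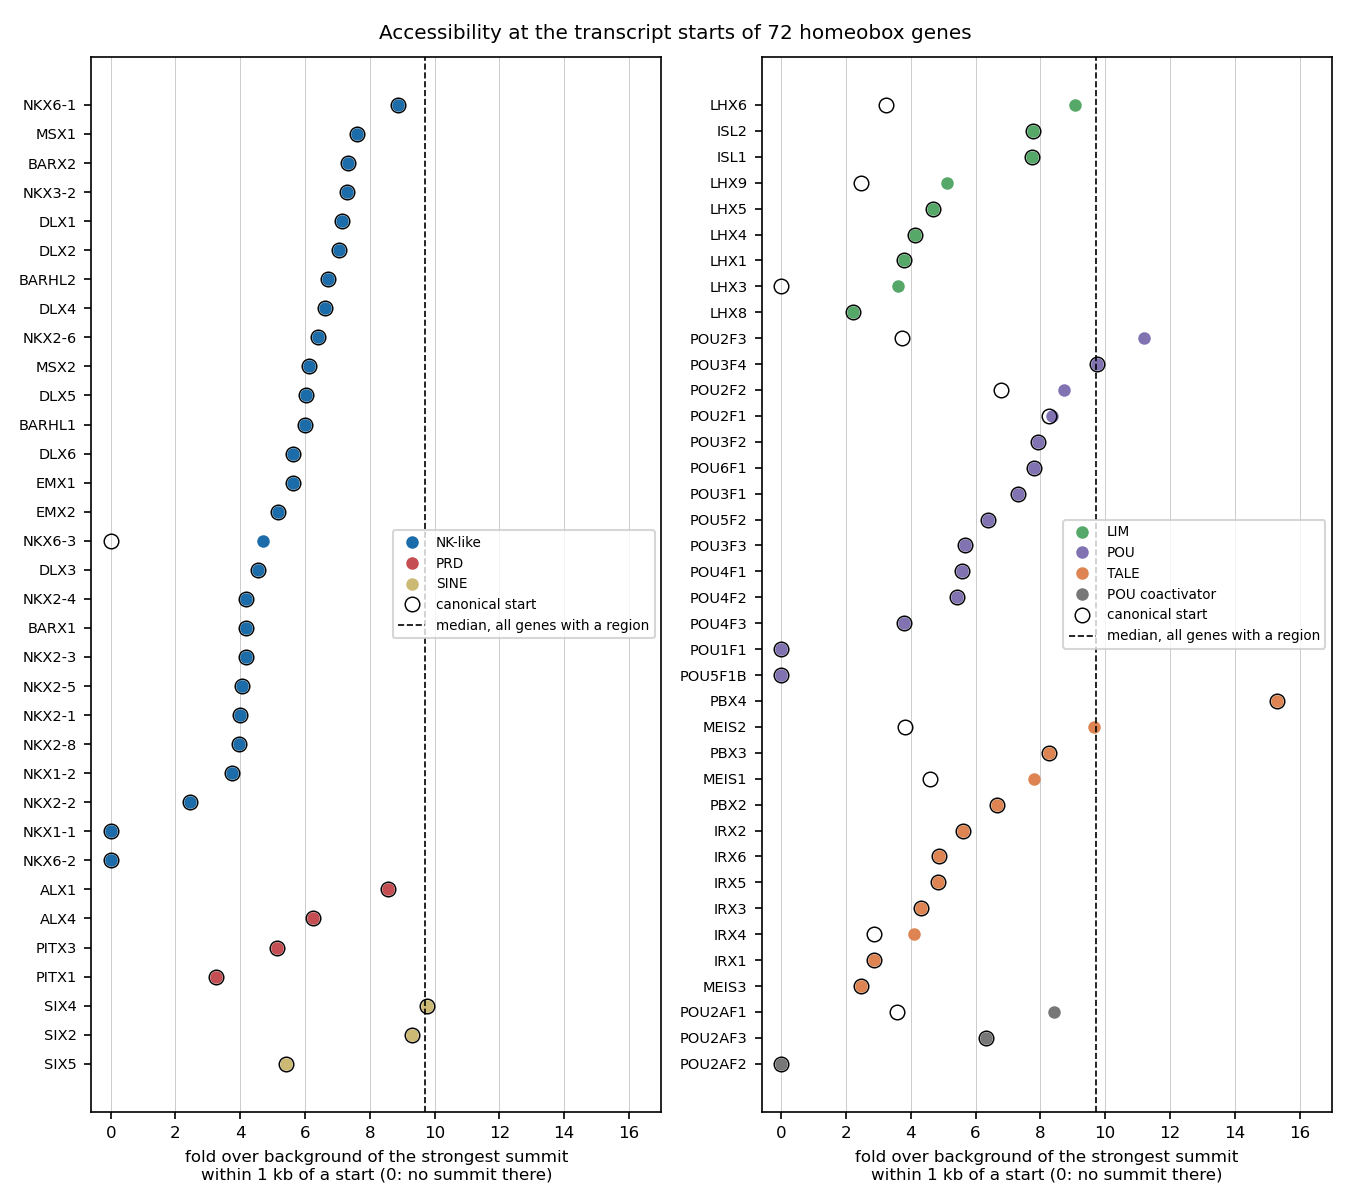
Fold over background of the strongest summit within 1 kb of any annotated start (filled points, coloured by homeobox class) and of the canonical start (open circles) for 72 of the 78 genes, with 0 where there is no summit, and the median of all protein-coding genes with a region (dashed line). Filled points of 63 genes lie between 2.22 and the dashed line at 9.71, 4 lie above it, and 5 lie at 0.

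The TALE class held some of the highest and of the lowest values. PBX4, of a family that encodes partners of HOX proteins, had a fold of 15.3 at chr19:19618466-19619427. Its paralogs PBX3 and PBX2 had 8.26 and 6.66. The MEIS genes, which encode PBX partners, lay at 9.65 (MEIS2), 7.80 (MEIS1) and 2.47 (MEIS3). The value of MEIS3 was 8.94 with a window of 2000 bp around each start, and that of PBX3 was 3.94 with 500 bp or with the strongest summit of each region alone. The canonical starts of MEIS1 and MEIS2 had 4.60 and 3.83, below the strongest alternative start of each. The Iroquois genes IRX1, IRX2, IRX3, IRX4, IRX5 and IRX6, which pattern the neural plate and the heart, had 2.86, 5.62, 4.32, 4.10, 4.85 and 4.88 in that order. All 6 lay below the all-gene median, with a family median of 4.59.

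The SINE class, which acts with EYA proteins in sensory placodes, muscle and kidney, lay nearest to the all-gene median. SIX4 had 9.76 at chr14:60724038-60724573, SIX2, which maintains nephron progenitors, had 9.30, and SIX5 had 5.40. SIX4 lay just above the all-gene median of 9.71, and SIX2 and SIX5 below it.

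Among POU genes the median fold was 7.80 over the 13 of 15 with a region. The highest was POU2F3, the master factor of tuft cells, with 11.2 at chr11:120316931-120317505, but this start lies 77026 bp downstream of the canonical one, where the fold was 3.73. POU3F4, a neural and inner ear factor, had 9.76 at its only annotated start, and its neural paralogs POU3F2, POU3F1 and POU3F3 had 7.93, 7.31 and 5.67. The octamer-binding genes POU2F2, which acts in B cells, and POU2F1, which is expressed broadly, had 8.73 and 8.37. POU6F1 had 7.80 and POU5F2 6.39. The sensory neuron factors POU4F1, POU4F2 and POU4F3 had 5.58, 5.42 and 3.80. Of the coactivators, POU2AF1, which serves B cells, had 8.43 at a start 76355 bp upstream of the canonical one, where it had 3.56, and POU2AF3, a partner of POU2F3, had 6.32.

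The LIM class had the lowest class median, 4.69 over 9 of 9 genes. LHX6, a factor of cortical interneurons, was highest with 9.08 at a start 15035 bp downstream of the canonical start, where the fold was 3.24. ISL2 and ISL1, which specify motor neurons, with ISL1 also in heart progenitors, had 7.76 and 7.73. LHX9 had 5.13, LHX5 4.69, LHX4 4.13, LHX1 3.80, LHX3, a pituitary and motor neuron factor, 3.60 and LHX8, a factor of cholinergic neurons, 2.22. LHX3 had no region at its canonical start. At least 2 distinct start regions were found in 7 of the 9 LIM genes (77.8%), against 47.4% of the 78 genes and 31.3% of all genes. In the other homeodomain classes the share ran from 32.1% (NK-like) to 53.8% (TALE).

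The NK-like class was the most numerous, with a region in 26 of 28 genes and a median fold of 5.81. Among the higher values were those of NKX6-1, a factor of pancreatic beta cells, with 8.86 and MSX1, a craniofacial factor, with 7.60. In the NKX2 group, which holds early organ factors, NKX2-6 had 6.41 and the others lay below the class median: NKX2-4 had 4.19, NKX2-3 4.18, NKX2-5, needed for the heart, 4.06, NKX2-1, needed for thyroid and lung, 3.98, NKX2-8 3.97, and NKX2-2, a factor of the ventral neural tube, 2.44. The 6 DLX genes, which act in the face and in forebrain interneurons, lay between 4.54 (DLX3) and 7.15 (DLX1). BARX2 had 7.31, NKX3-2 7.28, BARHL2 6.70, MSX2 6.12, BARHL1 5.99 and BARX1 4.18. The cortical factors EMX1 and EMX2 had 5.64 and 5.16. NKX6-3 had 4.69 at an alternative start and no region at its canonical start, and NKX1-2 had 3.75.

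In the PRD class PITX3, a factor of lens and dopaminergic neurons, had 5.13 and PITX1, a hindlimb factor, 3.25. ALX1 and ALX4, which act in facial mesenchyme, had 8.55 and 6.25. The class median was 5.69 over 6 of 6 genes.

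Some of these values depended on the window around a start. With 500 bp in place of 1000 bp BARHL2, LHX8 and NKX6-3 had no region, NKX3-2 had 2.36 and POU2AF1 had 3.56. With 2000 bp IRX5 had 9.19, MEIS1 12.0, NKX2-2 5.24 and LHX8 3.83. At the canonical start alone LHX9 had 2.45. Among regions above the median −log10 p of the list, 9 of the 73 genes had none at a start, among them IRX1, LHX3, LHX8, MEIS3, NKX2-2, NKX2-4, NKX2-5 and PITX1. This left 64 of 78 genes with a region, while the share over all protein-coding genes fell from 81.1% to 74.2%.

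No region lay at any start of 5 genes, and no region reached the 1 kb window of any of their starts. NKX1-1 and NKX6-2, a factor of oligodendrocytes, have CpG-rich starts, whose CpG ratios (observed over expected) of 0.998 and 1.11 put both in the highest decile of all genes. In that decile 98.9% of all protein-coding genes had a region. The nearest summits lay 4173 bp upstream of NKX1-1 (fold 6.57, chr4:1410469-1410956) and 1839 bp upstream of NKX6-2 (4.28, chr10:132787873-132788130). The other 3 have CpG-poor starts: POU1F1, the pituitary factor, with a ratio of 0.352, POU5F1B with 0.387 and POU2AF2, a tuft cell coactivator, with 0.0417. With a window of 2000 bp NKX6-2 and POU2AF2 had a region, with folds of 4.28 and 3.79. POU5F1B is a near-identical retrocopy of POU5F1, so reads could be shared between the copies and its value is uncertain.

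Several genes had regions at many separate starts. MEIS1 had 7 regions over 17 starts, with folds from 3.02 to 7.80, and its strongest lay at a start 1673 bp upstream of the canonical one. MEIS2 had 6 over 36 starts, with 9.65 at a start 202210 bp downstream, 9.03 at one 5528 bp downstream and 3.83 at the canonical start. POU2F2 also had 6. In 12 of the 73 genes (16.4%) the strongest start region was not at the canonical start, close to the 16.8% of all genes with a region, and 2 of these, LHX3 and NKX6-3, had none there.

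The lower fold was seen at starts of middle and high CpG content. The median ratio of observed to expected CpG in 1000 bp around the canonical start was 0.734 for the 78 genes and 0.725 for all genes, and 41 of the 78 (52.6%) lay in the 5 richer deciles, which hold 50.0% of all genes. The median G+C content of these windows was 64.4% and 61.3%. Deciles 1, 2 and 3, each with about 2003 of all genes, held 1, 1 and 8 of the 78. In these deciles 31.7%, 42.8% and 59.2% of all genes had a region, against 89.1% to 99.0% in deciles 4 to 10. Of the 78 genes, 0 of 1, 1 of 1 and 6 of 8 had one in deciles 1, 2 and 3. In deciles 4 to 9 all of them did. The shares of 93.6% and 81.1% above are thus not matched for CpG content. The fold was below the median of the gene's own CpG decile in 64 of 73 genes, where 50.0% of all genes with a region lie below it. In decile 4, which held 17 of the 78, the median was 5.64, against 9.98 over all genes. In decile 7, with 12, it was 5.90 against 10.4, and in decile 10, with 10 of 12 open, 5.60 against 9.18. In the CpG-poor decile 3 the difference was smaller, with 7.40 over 6 of 8 genes against 8.0.

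**Figure D2:**
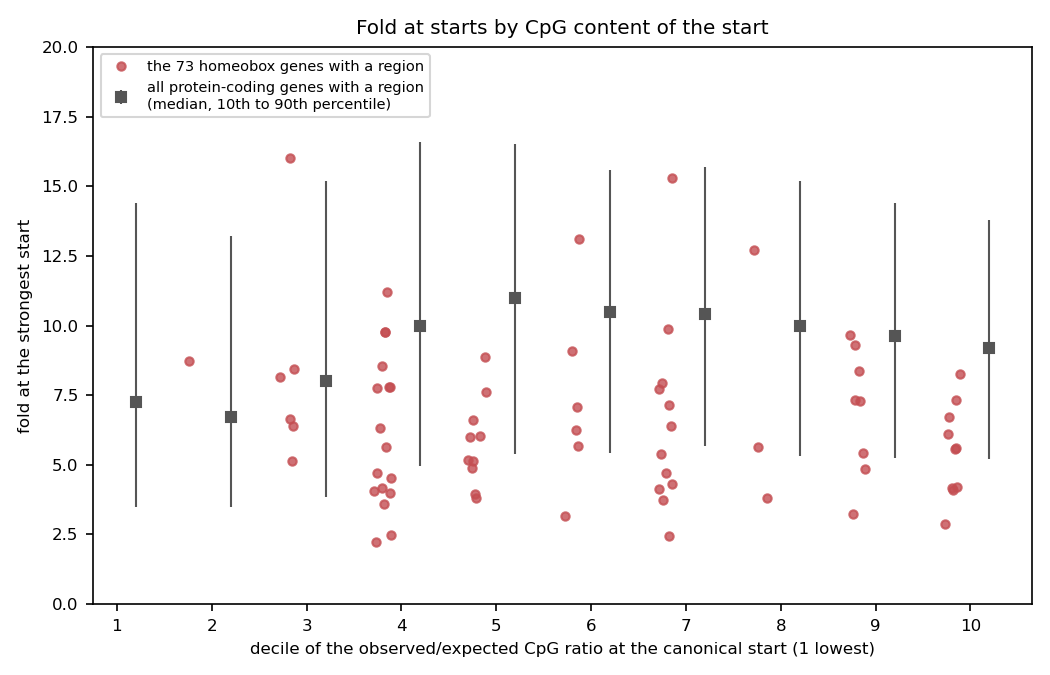
Fold at the strongest start of each of the 73 genes with a region (points) by the gene's decile of CpG ratio at the canonical start (1 lowest, 10 highest), beside the median (square) and the 10th to 90th percentile (bar) of all protein-coding genes with a region in that decile. From decile 4 to decile 10 the medians of the 73 genes lie between 5.58 and 7.30, below the all-gene medians of 9.18 to 11.0.

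Away from their starts the genes had more accessible regions than protein-coding genes as a whole, once the length searched was taken into account. The number of other regions within 50 kb had a median of 9 (interval 8 to 11, lowest 3), against 8. At least 10 such regions were found at 35 genes (44.9%), against 40.2% of all genes. The genes are short, with a median length of 6.82 kb, against 27.5 kb, so the window searched is shorter. Per 100 kb searched the median was 7.54 (range 2.90 to 14.6), against 5.68, and 53 of 78 lay above the all-gene median, where 50.0% of all genes do. Among genes of the same CpG decile 51 of 78 lay above the decile's median, also against 50.0%. At least 10 per 100 kb were found at 18 genes (23.1%), against 11.0%. With regions at the start of any gene left out, the medians per 100 kb were 5.91 and 3.63.

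The highest counts were at long genes. Among them MEIS2 had 26 other regions over 312.1 kb searched (8.33 per 100 kb), POU2F1 23 and MEIS1 21. Fewer were counted at LHX8 with 18, LHX4 and PBX4 with 16 each, and POU3F1 and POU2AF1 with 15 each. NKX1-1, NKX2-4 and NKX6-2 had 3 each and IRX1, the next lowest, had 4. Among the densest surroundings were those of POU3F1, a factor of Schwann cells and neural progenitors, with 14.6 per 100 kb, LHX8 with 13.5, NKX2-6 with 13.3, LHX5 with 12.7 and NKX2-3 with 12.6. LHX8 thus paired the lowest fold at a start with the second densest surroundings. The sparsest were those of NKX1-1 with 2.90, NKX6-2 with 2.91 and NKX2-4 with 2.94, ahead of POU5F1B with 3.54, PBX3 with 3.75 and IRX1 with 3.79. NKX1-1 and NKX6-2 were thus without a region at a start as well as sparse around it.

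**Figure D3:**
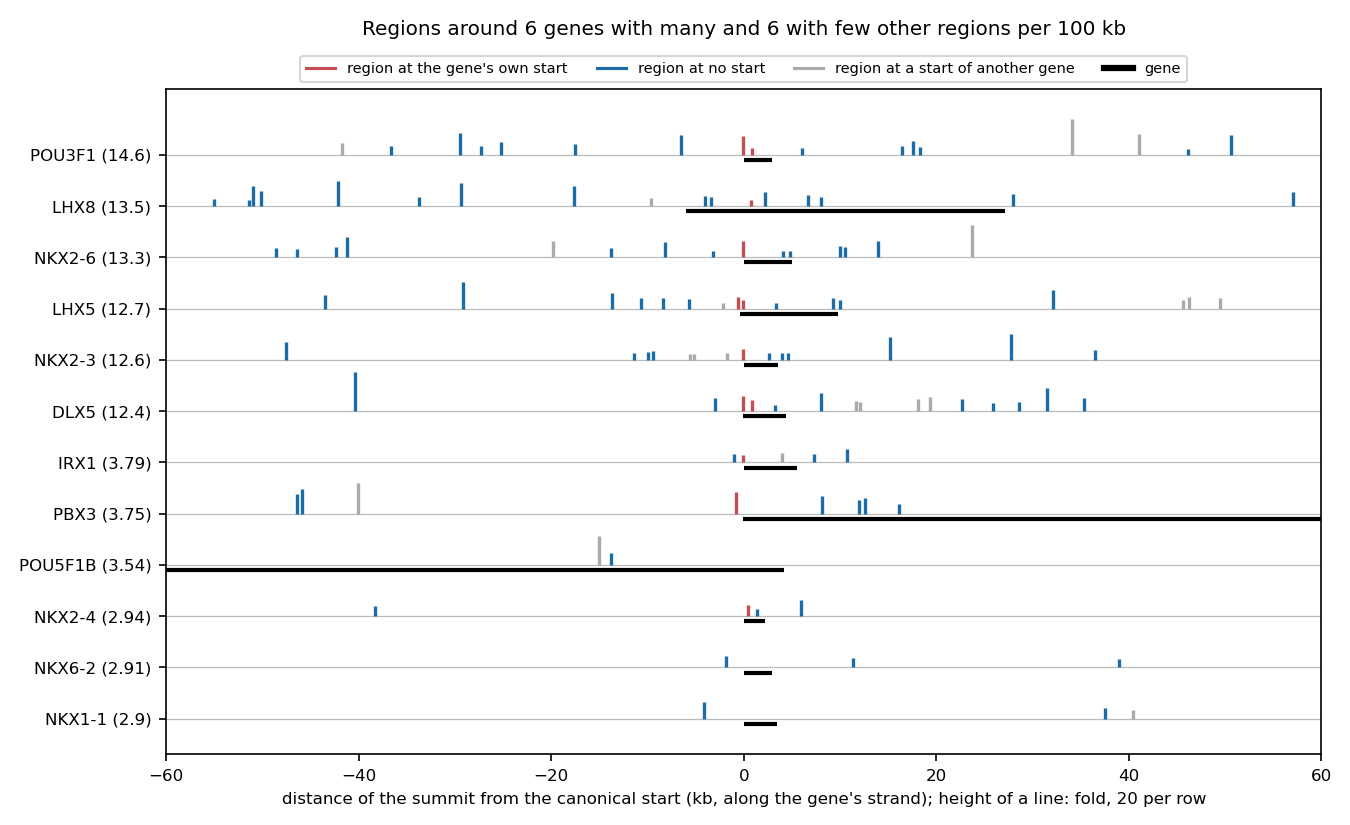
Accessible regions around 6 of the genes with the most and 6 with the fewest other regions per 100 kb (value in brackets), by distance of the summit from the canonical start in kb along the gene's strand, with line height giving the fold, colour the kind of region and the black bar the gene. POU3F1 with 14.6 per 100 kb stands at the top and NKX1-1 with 2.90 at the bottom, and NKX1-1, NKX6-2 and POU5F1B show no region at a start.

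The excess of regions lay close to the starts. Between 5 and 10 kb from the canonical start, regions at no annotated start numbered 13.1 per 100 kb (95% exact Poisson interval 10.7 to 15.9), against 3.93 over all genes, and 56 of the 78 genes (71.8%) had at least 1 there, against 30.9%. From 1 to 2 kb the density was 10.9 (6.35 to 17.4) against 3.44, and from 2 to 5 kb 8.76 (6.29 to 11.9) against 2.93. It was 6.86 (5.62 to 8.29) against 3.94 from 10 to 20 kb, and 4.89 (4.28 to 5.57) against 3.91 from 20 to 50 kb. The share of genes with a region was 19.2% against 6.5% from 1 to 2 kb, 37.2% against 15.2% from 2 to 5 kb, and 92.3% against 82.7% from 20 to 50 kb. These intervals cover counting error only and treat regions as independent, although 43 other regions lay near more than 1 of the genes.

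These other regions had a slightly lower median fold than those of the whole list, and included some of high fold. The 632 regions at no start had a median fold of 4.72 (10th to 90th percentile 2.86 to 9.34), against 5.16 (3.20 to 11.2) over all 129121 such regions of the list, and their median width was 426.5 bp, against 417 bp. By annotation 349 were intergenic (55.2%), 240 intronic (38.0%), 23 in coding sequence (3.64%) and 20 in other exons (3.16%). The highest fold was 20.6, at chr1:197868919-197869726, 48267 bp upstream of LHX9, a factor of the gonad and limb. PBX3 had 17.5 inside the gene at chr9:125951050-125951602, and BARX2, a factor of muscle and epithelia, had 17.5 at chr11:129363846-129364697, 11528 bp upstream. POU2AF1 had 17.2 inside the gene, and POU4F1 16.9 at chr13:78586483-78587075, 16675 bp downstream of its start, the region whose summit sequence is printed above. DLX5 followed with 15.4, 40337 bp upstream, SIX4 with 15.2, 36480 bp upstream, POU2AF2 with 15.2, and ALX4 with 14.3. ISL2 had 15.8 in a region at the start of another gene. Of these, LHX9, BARX2, POU4F1 and DLX5 had folds of 5.13, 7.31, 5.58 and 6.04 at their own starts, each below that of the other region.

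Many of these regions were CpG-rich, unlike most accessible regions away from starts. A region was called CpG-rich where the sequence reaching 250 bp to either side of its summit had a ratio of observed to expected CpG above 0.6 and a G+C content above 50%. This held for 120 of the 632 regions at no start (19.0%, interval 16.0% to 22.3%), against 2.47% of all regions at no start and 3.13% of those within 50 kb of a protein-coding gene. At least 1 such region lay within 50 kb of 61 of the 78 genes (78.2%, interval 67.4% to 86.8%), against 23.0% of all protein-coding genes. ISL1, MEIS1, MEIS2, MEIS3, NKX2-3, NKX3-2 and POU4F1 had 4 each. By annotation, 13 of the 23 regions in coding sequence were CpG-rich (56.5%), against 19.1% of those within 50 kb of any protein-coding gene. Of the 349 intergenic regions 81 were (23.2%), against 5.15%. Of the 240 in introns 23 were (9.58%), against 1.59%, and of the 20 in other exons 3 (15.0%), against 5.31%.

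The CpG-rich share differed with distance. Within 5 kb of the canonical start it was 36 of 58 regions (62.1%, interval 48.4% to 74.5%), against 15.4% near all genes. From 5 to 10 kb it was 43 regions (42.6%, 32.8% to 52.8%) against 6.47%, and from 10 to 20 kb 25 of 97 (25.8%, 17.4% to 35.7%) against 4.47%. From 20 to 50 kb it was 4 of 206 (1.94%, 0.532% to 4.90%) against 2.82%, within the interval. Beyond 50 kb it was 12 of 170 (7.06%) against 1.07%. The median fold ran the other way, with 3.11 within 5 kb, 4.12 from 5 to 10 kb, 4.26 from 10 to 20 kb and 5.24 from 20 to 50 kb, against 4.10, 5.11, 5.22 and 5.24 in the same bins near all genes. CpG-rich regions near the 78 genes had a median fold of 3.82, against 4.88 for the other regions near them. Over the whole list CpG-rich regions at no start had 5.52 and the others 5.15.

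**Figure D4:**
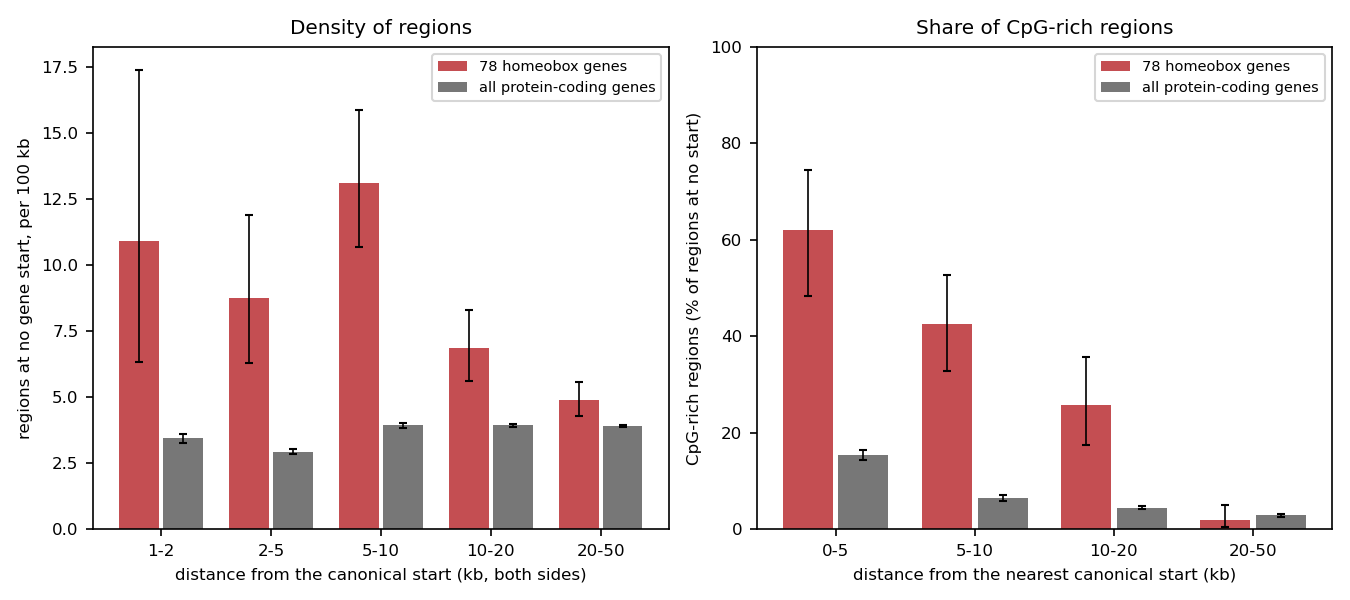
Left, accessible regions at no annotated start per 100 kb by distance from the canonical start in kb, with 95% exact Poisson intervals. Right, the percent of such regions that were CpG-rich by distance from the nearest canonical start, with 95% exact binomial intervals, each for the 78 genes (red) and all protein-coding genes (grey). The red bars stand at 13.1 against 3.93 per 100 kb between 5 and 10 kb, and at 62.1% against 15.4% within 5 kb.

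Few motifs near the summits of the 632 regions differed in frequency from the list, and the main one was G+C-rich. For 17 motifs, the share of regions holding the letters, on either strand and at most 50 bp from the summit, was compared with that over all 129121 regions at no start. The GC box GGGCGG, bound by SP factors, was found in 13.0% (interval 10.5% to 15.8%), against 4.76% of the list. The AP-1 site TGANTCA was found in 3.01% (1.82% to 4.66%), against 4.93%. For the other 15 motifs the share over the list lay inside the interval of the regions near the 78 genes. Of the sites bound by these families themselves, the homeodomain core TAATTA was found in 1.74% (0.872% to 3.09%) against 2.12%, the bicoid site TAATCC of PITX proteins in 4.75% against 4.03%, the NKX2 site TNAAGTG in 4.43% against 4.91%, the Iroquois site ACANNTGT in 1.90% against 2.74%, and the MEIS site TGACAG in 5.70% against 7.44%. The longer composite site of PBX with MEIS, which contains the MEIS site, was found in 0.316% against 0.259%, and the MEF3 site TCAGGTTTC of SIX2 and its relatives in 0.158% against 0.327%. The octamer ATGCAAAT was found in 3.32% (2.07% to 5.03%) against 2.57%, and the SOX-POU composite, which overlaps it, in 0.158% against 0.133%.

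The remaining motifs belong to factors of other families. TEAD (GGAATG) was found in 11.7% against 12.0%, NF-Y (CCAAT) in 10.9% against 12.7%, CTCF in 2.85% against 1.92%, SOX (AACAATG) in 2.37% against 2.77%, forkhead (TGTTTAC) in 1.42% against 1.92% and REST in 0.475% against 0.172%. Base composition differed between the sets: 25.6% of the 632 windows had 60% to 70% G+C, against 11.4% of the list, and 8.07% had 70% to 80%, against 1.93%. Within these steps the GC box was found in 22.8% (16.6% to 30.1%) against 16.9% and in 58.8% (44.2% to 72.4%) against 45.1%, both inside the interval. The AP-1 site, at 40% to 50% G+C, was found in 5.14% (2.38% to 9.54%) against 5.78%. Of 70 shares compared within steps of G+C, 2 had the list outside the interval. One was the octamer at 40% to 50% G+C, with 14 of 175 regions (8.0%, 4.44% to 13.1%) against 3.36%, and the other the bicoid site at 60% to 70%, with 4.32% (1.75% to 8.70%) against 1.45%. No adjustment was made over the 70, and a match describes the letters in the window, not binding.

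Some of these genes lie side by side, with 10 neighbouring pairs of a family within 500 kb. Regions between such a pair were counted over the whole gap, also beyond 50 kb from a gene, leaving out those at a start of either. The DLX pairs are convergent and close, with gaps of 15045 bp (DLX4 and DLX3), 9760 bp (DLX1 and DLX2) and 9355 bp (DLX6 and DLX5). They held 2, 1 and 3 regions between the genes, the strongest of those at no start at 9.02, 3.16 and 6.97. The start folds of DLX1 and DLX2 were 7.15 and 7.06, and those of DLX6 and DLX5 were 5.64 and 6.04, while DLX4 and DLX3 had 6.62 and 4.54. Likewise NKX2-1 and NKX2-8 had 3.98 and 3.97, and IRX5 and IRX6 4.85 and 4.88. The IRX5 to IRX6 interval of 389717 bp held 16 regions, 15 of them at no start of any gene, with a highest fold of 9.99, and the sequence of that summit is printed above. NKX2-4 and NKX2-2 differed more, with 4.19 and 2.44 and 4 regions in 113490 bp. NKX2-1 and NKX2-8 lie 58854 bp apart with 4 regions between them. Of the POU2AF genes, POU2AF2 and POU2AF3 had 0 regions in their 12144 bp gap, and POU2AF3 and POU2AF1 had 4 in 43519 bp.

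The 78 genes and other homeobox genes had similar median folds at starts, 6.12 and 5.45, with overlapping intervals of 5.40 to 7.15 and 4.49 to 5.80. Of 72 further homeobox genes from other families, 59 (81.9%, interval 71.1% to 90.0%) had a region at a start. The share was 93.6% for the 78 genes and 81.1% for all protein-coding genes. Of the 72, 45 (62.5%) lay in CpG deciles 6 to 10, where 98.0% to 99.0% of all genes had a region. The 72 genes had a median of 8.07 other regions per 100 kb, against 7.54 for the 78 genes and 5.68 for all genes. The highest folds at starts were those of HESX1, a repressor needed for forebrain and pituitary development, with 14.2, PKNOX1, a TALE partner of PBX, with 9.80, and OTP, a hypothalamic factor, with 9.51. DBX1, EVX1 and EVX2 were the first in alphabetical order of the 13 without a region.

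The partner proteins of these families were encoded by genes that were all open. Each of 22 cofactor genes had a region at a start, against 81.1% of all protein-coding genes. Of the 22, 15 (68.2%) lay in CpG deciles 6 to 10, where 98.0% to 99.0% of all genes had a region. For those 15 the count was thus close to the share over all genes. Their median fold was 6.92, and its interval of 5.26 to 10.2 overlaps that of the 78 genes and also holds the all-gene median of 9.71. A fold of 10 or more was reached by 5 of the 78 genes (6.41%), by 6 of the cofactors (27.3%) and by 38.5% of all genes. These counts and folds take any start of a gene and are not matched for the number of starts. The cofactors have a median of 12.5 annotated starts, against 3 for the 78 genes and 5 for all genes. At the canonical start alone, 21 of the 22 cofactors had a region. The median folds there were 7.46 for the cofactors, 5.64 for the 78 genes and 9.46 for all genes. Of the partners of SIX2 and its relatives, EYA1 had 17.2, EYA3 14.0, EYA2 5.43 and EYA4 4.70, and of the DACH corepressors DACH2 had 17.5 and DACH1 4.69. Of the LIM partners, LDB2 had 11.9 and LDB1 5.98, and SSBP2, SSBP3 and SSBP4 had 10.0, 7.46 and 2.14. The fold of SSBP2 was below 10 before rounding, so SSBP2 is not among the 6. LMO1 to LMO4 had 7.47, 5.64, 5.21 and 8.20 in that order, with no region at the canonical start of LMO2. The PBX partners PKNOX1, PKNOX2 and PBXIP1 had 9.80, 5.94 and 6.37. The Groucho corepressors TLE4, TLE1, TLE2 and TLE3 had 11.6, 10.2, 5.26 and 3.72.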

How the data were processed

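ATAC-seq of H1 cells gave 1 deposited list of accessible regions for 2 samples in 1 group. Per the submitters' processing notes the build was GRCh38, and per the labels the list is the optimal set of an overlap, without saying of what. The aligner, peak caller, read shift and settings were not given in the sources used here. Library depths were not analysed here. The deposited fold is an enrichment ratio at the summit, over an undescribed background. The deposited −log10 p comes from the unnamed peak caller. In 236866 of 236878 rows the deposited score was 10 times that −log10 p without its decimals, capped at 1000. Fold and −log10 p were used to rank or filter regions of this list alone.

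Rows that share their chromosome and both ends count as 1 region. GENCODE release 44 gave transcript starts and the hg38 sequence gave base composition and motifs. A gene's fold was the highest among summits within 1000 bp of any of its starts. Other regions were counted to 50 kb on either side of the gene. CpG deciles were set over all protein-coding genes from 1000 bp centred on the canonical start. Intervals for shares are 95% exact binomial (Clopper-Pearson), those for medians are binomial over order statistics and those for densities are exact Poisson. They cover counting error only, and no test over samples was possible. Python 3.11.15, pandas 2.3.3, numpy 2.4.6, scipy 1.17.1 and pysam 0.24.0 were used, and the counting was tested on simulated data with known answers.

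The genes, lists, motifs and alternatives were chosen with earlier results of these data known. All 78 genes enter the counts and medians, and values of 6 of them are not reported here. Of the others, genes named with values include, by rule, each family's highest start, genes with no region, the 10 with most and 5 with fewest other regions (4 are named, because the next are tied), the 10 with the highest other folds, neighbouring pairs, every cofactor, and of 73 other homeobox symbols (1, PRRXL1, not matched) the 3 highest and first 3 without a region. Other starts are given to complete each class. The CpG-rich class, the bins of distance and the steps of G+C were added after the data were seen, as were the CpG-rich sequences.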

Additional observations from a re-analysis of the deposited data

How the results depend on the processing

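Under the 6 alternatives tried, the median fold at starts stayed within its interval. The count of genes with a region at a start stayed within 1.5 times its value. That limit is wide and cannot be passed upwards from 73 of 78, so it says little about the count. The count was 64 to 75 of 78 (71 of 75 without the POU2AF genes) and the median fold 5.64 to 6.51, with windows of 500 and 2000 bp, the canonical start alone, the strongest summit of each region alone, regions above the median −log10 p, or without the POU2AF genes. Of all genes 74.2% to 83.6% had a region, with medians of 9.46 to 10.2. The median number of other regions moved with the window and the unit counted. It was 6 within 25 kb (all genes 5), 16 within 100 kb (15), 13.5 when single summits were counted (13), 7 without regions at any start (5) and 4 for regions above the median −log10 p (4). Per 100 kb, an alternative added after seeing the data, these were 9.08 within 25 kb (5.36), 10.8 for single summits (8.63), 5.91 without regions at any start (3.63) and 3.45 above the median −log10 p (2.94), and 7.16 to 7.82 under the others. Also added later, the CpG-rich share was 15.8% with 500 bp to either side of the summit (list 1.95%), and 19.5% to 20.7% with 100 bp, above the median −log10 p or without the POU2AF genes. The density from 5 to 10 kb was 6.41 above the median −log10 p (1.86) and 13.5 without the POU2AF genes. Of 17 motifs, the list lay outside the interval for 1 at 25 bp, for 4 at 100 bp and for 2 with starts of neighbouring genes counted, against 2 at 50 bp. The cause of these shifts was not tested, beyond the smaller or larger sets that each alternative counts.

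No paired analysis was possible because there is 1 group and 1 list shared by both samples. No replicate was left out, since the list holds no value per replicate. The depth is unknown, so a gene without a region is one with openness not detectable in this list.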
